A study of Mus musculus with 75 samples.

Results

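The regions described here carried ATAC-seq peaks at P1 and P5 and no peak at P7 in mouse skin fibroblasts taken through replicative senescence. Overlapping ATAC-seq peaks on chromosomes 1 to 19 and X were merged over all 13 samples into 306843 union regions, and a region was chosen by its measured peaks: a peak in at least 3 of 4 P1 samples, in at least 2 of 3 P5 samples and in 0 of 3 P7 samples. This rule selected 1289 members, out of 135256 regions that met the P1 and P5 requirement. Of the other regions that met it, 3024 had a peak in 1 P7 sample, 7021 in 2 and 123922 in all 3. Their presence and strength at P1, P5 and P7 are therefore a description, and only P3, the RNA and the genome sequence were not used by the rule. The cells were untreated dermal fibroblasts of 2-month-old female C57BL/6 mice, split 1:3 and collected at passages P1, P3, P5 and P7. ATAC-seq had 4, 3, 3 and 3 samples at these passages, and RNA-seq had 4 libraries at each, with 13430229 to 15725823 counted reads. The labels do not say whether replicates came from separate mice or cultures, so p-values measure only the spread between these libraries.

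ATAC-seq marks DNA that a transposase can reach, mainly promoters and enhancers whose nucleosomes are displaced by transcription factors. In fibroblasts, AP-1 (JUN and FOS proteins) occupies many enhancers together with TEAD and RUNX factors, while EBF factors open chromatin in several mesenchymal lineages. When cultured fibroblasts stop dividing, genes of DNA replication and mitosis are switched off and secreted factors are switched on.

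Sequences from 3 kinds of member are shown first, read from the plus strand of the GRCm38 (mm10) genome of RefSeq. Capitals mark matches, on either strand, to an EBF motif (CCCNNGGGA), a RUNX motif (TGTGGTT), an AP-1 motif (TGACTCA) or a LHX and other homeobox motif (TAATTA), and a window without capitals has no match to these letters. The first 4 are the strongest members over 220 bases long with an EBF match, because this motif differed most upward from the regions kept at P7. They are the 201 bases around the summit in a coding exon of Sybu at chr15:44677559-44677759, between genes near Gm9530 at chr1:155090825-155091025, between genes on chromosome 3 with no start site within 100 kb at chr3:18778602-18778802, and in an intron of Kcnq3 at chr15:66258434-66258634.
Sybu: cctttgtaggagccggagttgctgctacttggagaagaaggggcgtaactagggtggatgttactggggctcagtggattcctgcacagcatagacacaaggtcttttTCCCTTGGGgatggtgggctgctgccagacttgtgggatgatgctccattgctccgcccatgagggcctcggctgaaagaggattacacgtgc
near Gm9530: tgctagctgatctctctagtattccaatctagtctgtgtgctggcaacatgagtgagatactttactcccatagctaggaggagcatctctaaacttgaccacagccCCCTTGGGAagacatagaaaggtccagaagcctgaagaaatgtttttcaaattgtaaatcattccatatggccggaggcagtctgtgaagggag
chromosome 3: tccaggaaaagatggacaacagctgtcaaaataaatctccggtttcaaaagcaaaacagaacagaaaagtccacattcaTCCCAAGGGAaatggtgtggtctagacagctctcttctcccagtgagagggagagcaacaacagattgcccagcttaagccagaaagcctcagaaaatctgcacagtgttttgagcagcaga
Kcnq3: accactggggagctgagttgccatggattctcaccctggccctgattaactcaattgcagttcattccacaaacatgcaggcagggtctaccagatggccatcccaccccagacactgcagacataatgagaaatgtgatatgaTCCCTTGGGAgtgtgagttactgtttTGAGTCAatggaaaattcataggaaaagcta

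The next 2 windows belong to members nearest to cell-cycle genes that fell at P7. They lie in Pclaf, within 1000 bases of its start, at chr9:65891146-65891346, and in an intron of the non-coding gene 1700020G17Rik 61199 bases from the start of E2f7 at chr10:110806538-110806738.
Pclaf: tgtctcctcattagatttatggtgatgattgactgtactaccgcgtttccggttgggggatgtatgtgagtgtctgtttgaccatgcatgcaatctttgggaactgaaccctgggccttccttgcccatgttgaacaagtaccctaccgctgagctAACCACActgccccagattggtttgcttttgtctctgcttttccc
E2f7: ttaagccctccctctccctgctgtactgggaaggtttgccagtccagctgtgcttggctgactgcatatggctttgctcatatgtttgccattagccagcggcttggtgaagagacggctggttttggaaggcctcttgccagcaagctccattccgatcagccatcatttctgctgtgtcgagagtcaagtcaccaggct

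The last 2 are the strongest members of all, shown whole because they are only 218 and 217 bases long. They lie in an intron of Gpr75 at chr11:30888202-30888419 and between genes 17762 bases from the start of Arhgap20 at chr9:51747482-51747698.
Gpr75: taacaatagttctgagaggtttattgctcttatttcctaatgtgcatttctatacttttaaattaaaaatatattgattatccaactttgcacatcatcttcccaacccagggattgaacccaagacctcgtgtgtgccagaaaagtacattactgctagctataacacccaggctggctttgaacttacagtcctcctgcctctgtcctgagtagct
Arhgap20: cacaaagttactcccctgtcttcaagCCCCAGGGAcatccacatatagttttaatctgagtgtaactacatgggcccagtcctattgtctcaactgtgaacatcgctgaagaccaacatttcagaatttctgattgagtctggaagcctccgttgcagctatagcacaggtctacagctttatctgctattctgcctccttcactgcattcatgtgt

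The members were weak peaks. The smallest −log10 p in the peak lists was 2.0, so absence at P7 means no peak above that threshold and not closed chromatin. Strength was taken as the percentile of a peak's −log10 p among the peaks of its sample, averaged over the 4 P1 and 3 P5 samples with no peak counted as 0. Its median was 18.96 over the members, with quartiles of 12.8 and 26.3. Among the peaks present, the median percentile of the members was 24.7 to 30.2 in the P1 samples and 15.4 to 18.9 in the P5 samples. In regions with a peak in all 3 P7 samples it was 63.6 to 66.5 at P1 and 66.3 to 69.6 at P5. The members' median fold enrichment over local background was 2.98 to 3.09 at P1 and 2.89 to 2.99 at P5. When the 135256 regions were ordered by strength, 906 members fell in the weakest decile, where they made up 6.70% of the regions, and 250 fell in the next, where they made up 1.85%. No member fell in the strongest 2 deciles. The 263 members with a peak in all 7 P1 and P5 samples had a median strength of 28.3, and the 382 with the least presence allowed had 12.8. Just outside the rule, the regions with a peak in only 1 P7 sample had a median of 21.95, and the 1432 with a peak in only 1 P5 sample had 12.4.

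The peaks at P1 and P5 were not spread evenly over the replicates. At P1, 1184, 1111, 1159 and 1139 members carried a peak in replicates 1 to 4, which is 86.2% to 91.9%. At P5, 1084 and 1136 members carried one in replicates 1 and 2 but only 802, or 62.2%, in replicate 3. The P7 samples did not have fewer peaks than the others. They held 200363 to 231548 peaks, against 168970 to 186552 at P1, 142372 to 155668 at P3 and 182390 to 207956 at P5. Most members lay close to chromatin that was open at P7: the median distance to the nearest P7 peak was 1776 bases, 248 members (19.2%) had a P7 peak within 500 bases, and only 10 had none within 50 kb.

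**Figure D1:**
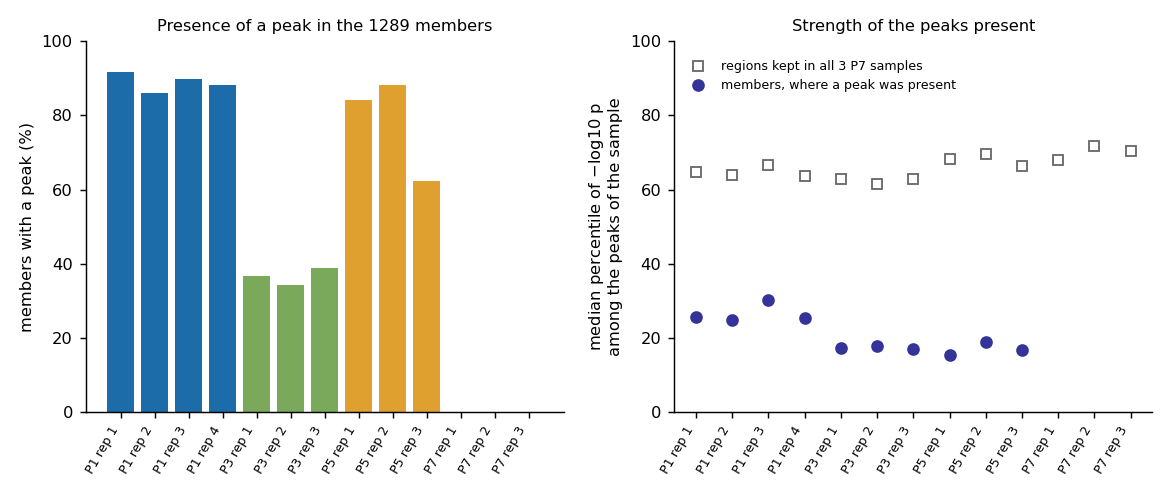
Left, percent of the 1289 members with a peak in each of the 13 ATAC-seq samples; right, the median percentile of −log10 p of the peaks present, for members (filled circles) and for regions with a peak in all 3 P7 samples (open squares). P1, P5 and P7 were used to choose the members, whereas the 3 P3 samples, at 34.2% to 38.8%, were not.

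The P3 samples were not used to choose the members, and most members lacked a peak in at least 2 of the 3. A peak was present in only 472, 441 and 500 members in the 3 P3 samples, that is in 36.6%, 34.2% and 38.8%. The P1 and P5 shares were set by the rule, so the P3 shares are read below only against other regions, over all and within a decile of strength. By number of P3 samples, 490 members (38.0%) had a peak in none, 355 in 1, 274 in 2 and 170 in all 3. A peak in 2 or more P3 samples was thus seen in 444 members, or 34.4% (exact Clopper-Pearson 95% interval 31.9% to 37.1%, which covers counting error only). The share was 40.4% in regions with a peak in 1 P7 sample, 51.0% with 2 and 90.7% with all 3. Within the weakest decile it was 30.6% of members and 52.9% of regions kept in all 3 P7 samples, and within the second decile 42.0% and 67.8%. The members with a P3 peak in all 3 samples were stronger at P1 and P5, with a median strength of 25.7 against 17.6 for those with none. The P3 lists were the shortest. With only the 142372 top-ranked peaks of every sample, 2665 regions met the rule. Of these, 65.9% had a peak in 2 or more P3 samples, against 96.4% of regions kept at P7. Only 153 members, or 11.9%, overlapped a region of that alternative, which is 5.74% of the alternative's regions. The alternative thus describes mostly other regions, and the part of list length in the members' P3 share was not tested. Accordingly, these regions are called here by the rule, as peaks of P1 and P5 absent at P7, and not as closed late.

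**Figure D2:**
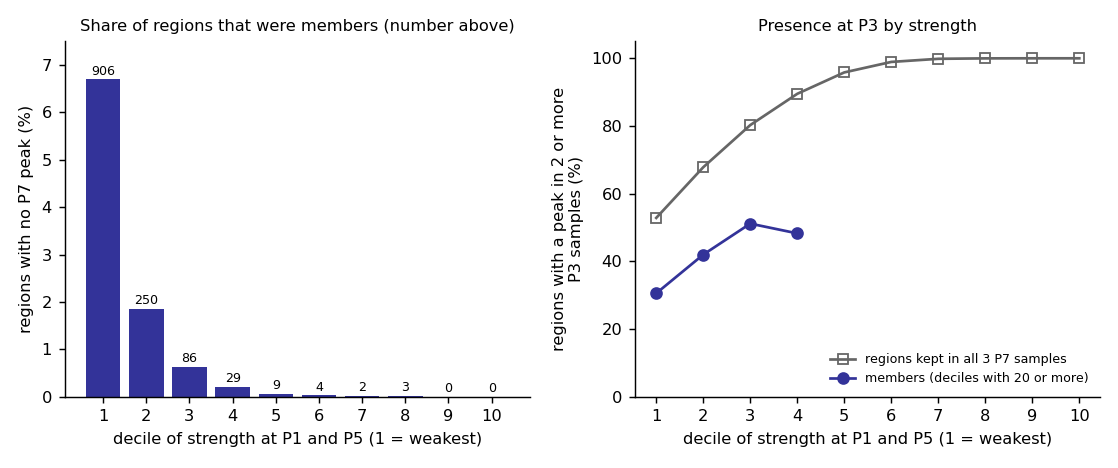
The 135256 regions with the members' P1 and P5 presence, by decile of strength at P1 and P5. Left, percent with no P7 peak, with the number of members above each bar, falling from 6.70% to 0; right, percent with a peak in 2 or more P3 samples, which was 30.6% of members (circles) and 52.9% of regions kept in all 3 P7 samples (squares) in the weakest decile.

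The number of members also turned on single samples. Leaving out P5 replicate 1 or 2, which makes the other two P5 samples both required, left 650 and 601 members, and leaving out P7 replicate 1, 2 or 3 raised the number to 2368, 2274 and 2266.

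A small group of members stood apart in length and strength. There were 19 members of 211 to 218 bases, close to the 200 bases that is the shortest peak in the files, and their median strength was 58.0 against 18.8 for the other members. They made up 13 of the 20 strongest members. All 19 had a peak in P1 replicates 2, 3 and 4 and in P5 replicates 1 and 3, 18 had one in P1 replicate 1 and 12 in P5 replicate 2. At P3, 18 of the 19 had no peak in any sample. Their median fold enrichment was 17.4 in P1 replicate 3, against 5.49, 5.83 and 7.57 in P1 replicates 1, 2 and 4 and 5.06 to 5.39 in the P5 samples, so 1 P1 sample stood well above the others. The member in an intron of Gpr75, a G protein-coupled receptor gene, had percentiles of 84.5, 88.1, 99.99 and 97.0 in P1 replicates 1 to 4 and of 73.1, 57.0 and 70.8 in P5 replicates 1 to 3. The member near Arhgap20 had 74.2, 79.2, 99.8 and 93.4 at P1 and 77.1, 66.1 and 77.9 at P5. Both were without a peak in all 3 P3 samples. None of the 19 lay within 1000 bases of a start site, 12 lay in introns and 7 between genes, and only 1 was mostly repeat sequence. Such short regions made up 1.47% of the members and 0.0145% of the regions kept in all 3 P7 samples (18 regions). Merging with P7 peaks can lengthen a kept region but not a member, so the rule itself bears on these shares. The sources used here do not say what these short, strong peaks are, and a cause was not tested.

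**Figure D3:**
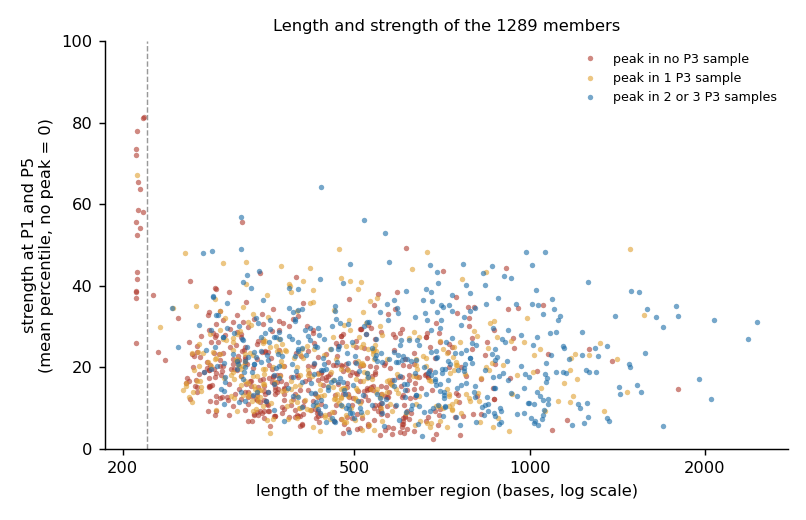
Each point is 1 of the 1289 members, by length (bases, log scale) and strength at P1 and P5 (mean percentile, no peak counted as 0), coloured by the number of P3 samples with a peak. The 19 members left of the dashed line at 220 bases reach a strength of 81.5 and nearly all lack a P3 peak, whereas the others form a single cloud with a median of 18.8.

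Of the members with peaks in all 7 P1 and P5 samples, 31 lay within 1000 bases of a start site and 232 farther away. The strongest promoter member, at the start of 5430421F17Rik (chr8:25306096-25306380), had percentiles of 61.0, 37.8, 43.2 and 48.2 at P1, of 19.4, 37.7 and 29.4 at P3 and of 48.5, 52.7 and 48.2 at P5. A second member, of 471 bases, lay at the same start. Arhgef1 also had 2 promoter members, and the stronger (chr7:24904981-24905255) had 60.3, 36.2, 60.6 and 43.8 at P1, 53.2, 52.3 and 57.9 at P3 and 47.7, 40.3 and 47.9 at P5. This member was thus as strong at P3 as at P1 and P5, unlike most. The other named promoter members lay at S100a5, a calcium-binding protein gene, at Clvs2, and at Gpm6a, a neuronal membrane glycoprotein gene. The Gpm6a member was 1494 bases long (chr8:54779279-54780772) and 27479 bases from the nearest P7 peak. Its percentiles fell within 46.2 to 60.9 at P1, 11.3 to 36.5 at P3 and 2.08 to 29.9 at P5, with P1 above both later passages and no overlap. These values chose the member and carry no test.

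Members lay mostly between genes and in introns. A start site of a RefSeq transcript was within 1000 bases of 124 members, or 9.62% (exact Clopper-Pearson 95% interval 8.07% to 11.4%), against 7.84%, 7.21% and 12.7% of regions with a peak in 1, 2 and 3 P7 samples. Within the weakest decile of strength the order was turned, with 8.94% of members and 4.41% of regions kept in all 3 P7 samples near a start. Elsewhere, 594 members (46.1%) lay between genes, 535 (41.5%) in introns, 15 in coding exons and 17 in 3' untranslated exons. The share near a start rose with presence at P3, from 4.29% of the members with a peak in no P3 sample through 10.4% and 13.5% to 17.1% of those with a peak in all 3. The members were shorter than the regions kept at P7, with a median of 484 against 779 bases, but in the weakest decile the medians were 487 and 539. Lengths are those of regions merged over all 13 samples, and distances to a start were taken from their edges. Only kept regions can be lengthened by P7 peaks, so the rule itself bears on the length and start-site comparisons. The median GC content of the 201 bases around the summit was 48.3% in members and 47.8% in kept regions, and repeats covered a mean of 14.8% and 11.7%. Members were found on every chromosome examined, from 0.730% of the regions meeting the P1 and P5 requirement on chromosome 19 to 1.33% on chromosome 16, and were seldom clustered: 62 lay within 50 kb of the next.

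EBF motifs were more frequent and AP-1 motifs less frequent in the members than in regions kept at P7. Letters of 21 motif families were searched on both strands of the 201 bases around each summit, as marked in the sequences above for 4 of them, and overlapping matches of different families were both counted. An EBF match was found in 9.62% of members, in 8.50% of regions with a peak in 1 P7 sample, in 6.05% with 2 and in 4.82% with all 3. An AP-1 match, the site of JUN and FOS dimers, was found in 13.7% of members, and in 18.1%, 22.3% and 27.0% of the other regions in the same order. Both shares thus changed step by step with the number of P7 samples that had a peak. RUNX matches were found in 11.6%, 10.4%, 9.87% and 9.16%, and LHX and other homeobox matches in 6.21%, 6.61%, 6.17% and 4.23%. The TEAD motif (ACATTCC) was found in 5.74% of members and 7.91% of kept regions, and the SP and KLF motif (GGGCGG) in 8.38% and 11.1%. The exact 95% interval of the members' share was 8.07% to 11.4% for EBF, 11.8% to 15.65% for AP-1 and 9.94% to 13.5% for RUNX, and it covers counting error only. Both the EBF and the AP-1 difference lay in the 1165 members away from start sites, where EBF matched 10.04% of members and 4.70% of kept regions and AP-1 matched 14.3% and 29.8%. At start sites EBF matched 5.65% of members and 5.67% of kept regions, and AP-1 matched 7.26% and 7.84%. The SP and KLF share was lower in members at start sites, at 27.4% and 51.35%, but higher away from them, at 6.35% and 5.28%. ETS (CCGGAAG) and NFY (CCAATCA) shares were also lower in members at start sites, at 2.42% and 11.98% and at 1.61% and 9.07%. These members' shares rest on 3 and 2 of 124 members. Not all motifs were lower there, since RUNX matched 5.65% of members and 3.47% of kept regions.

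The EBF and AP-1 differences were also seen within the 2 weakest deciles of strength. A decile is a coarse match, since the weakest runs from 1.19 to 24.6. The strengths of members and kept regions inside it were not compared. In the weakest decile, EBF matched 8.72% of 906 members and 3.599% of 7725 kept regions, and AP-1 matched 13.02% and 22.5%. In the second decile, EBF matched 11.6% of 250 members and 3.74% of 10550 kept regions, and AP-1 matched 17.6% and 24.1%. The difference in RUNX was smaller, with 10.3% and 8.97% in the weakest decile. The SP and KLF share, lower in members over all regions, was higher within it, at 7.73% and 5.02%, as was the share of E2F motifs (TTCCCGC and TTGGCGC), at 2.87% and 0.997%, though in the second decile E2F was at 0.80% and 0.919%. With equal numbers of top-ranked peaks from every sample, EBF was 10.02% and 4.78% and AP-1 was 16.4% and 28.6%. These shares were close by presence at P3: EBF matched 9.80% of the members with no P3 peak and 9.46% of those with a peak in 2 or more P3 samples, and AP-1 matched 12.4% and 13.5%. The E-box (CAGCTG), bound by basic helix-loop-helix factors, differed most, with 20.4% of 490 and 11.7% of 444, followed by the SP and KLF motif, with 3.88% and 12.2%, and the CTCF motif (AGGNGGC), with 12.65% and 17.3%. A match is a description of the letters and not a bound site.

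**Figure D4:**
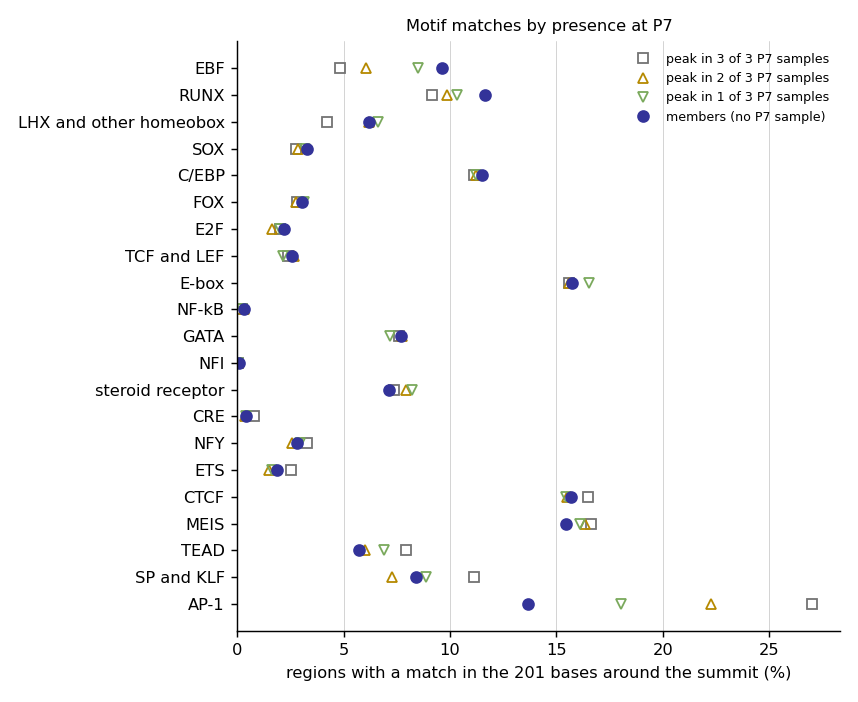
Percent of regions with a match to each of 21 motif families in the 201 bases around the summit, for members (filled circles) and for regions with the same P1 and P5 presence and a peak in 1, 2 or 3 P7 samples (open symbols), ordered by the difference between members and regions kept in all 3. EBF, at 9.62% against 4.82%, stands at the top and AP-1, at 13.7% against 27.0%, at the bottom.

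The genes of the factors that bind these motifs were examined at P7 against P5. A gene was called where edgeR's quasi-likelihood test over all 13442 genes gave a Benjamini-Hochberg adjusted p under 0.05 and a fold over 2. By this test 0 of 4 EBF genes, 0 of 4 RUNX genes and 0 of 11 AP-1 and ATF genes were called at P7 against P5, with 3, 3 and 5 of them at an unadjusted p under 0.05, and DESeq2 also called 0 of each list. Over all genes tested 2.28% were called lower and 1.19% higher, so lists of this size would hold few or no calls at that share. The RUNX list had a median log2 difference of −0.35, beside −0.01 over all genes tested. Runx3, a runt-domain transcription factor, had 33.9, 29.6, 35.1 and 36.4 CPM (counts scaled to the size of the library) at P5 and 19.5, 19.6, 19.1 and 21.9 at P7. The 2 passages did not overlap, and the log2 difference was −0.75 ± 0.11 (SE, n = 4 per passage, edgeR adjusted p = 5.97e-05), short of a 2-fold change. Of the E2F and DP list, E2f7 and E2f8 fell, and of the 4 nuclear factor I genes Nfib fell, with a log2 difference of −1.25 ± 0.14 (edgeR adjusted p = 7.07e-06). All 4 nuclear factor I genes had an unadjusted p under 0.05, with a median log2 difference of −0.47, and DESeq2 called 1. Of the other factor lists at P7 against P5, 1 of 15 homeobox genes (Alx4), 0 of 9 TEAD genes and partners, 0 of 14 bHLH genes and 3 of 30 T-box and other mesenchyme genes (Lef1, Osr1 and Osr2) fell, and none of the 4 lists had a gene that rose. The TEAD and bHLH lists had 6 and 7 genes at an unadjusted p under 0.05, and DESeq2 called 0 of each. Among the nearest genes of these lists were Runx1, at −0.40 on the log2 scale (edgeR adjusted p = 0.0170), and Ebf4, at 0.71 (edgeR adjusted p = 0.0553), neither of them called. The EBF list as a whole had a median of −0.19. Its genes summed to 125.2 to 163.4 CPM at P5 and 104.3 to 123.9 at P7. The RUNX genes summed to 225.9 to 269.9 and 189.2 to 211.3. At P7 against P1, Ebf3 and Runx3 were called lower and Ebf4 higher, where 13.3% and 8.10% of all genes were. In bulk samples such as these, fewer cells of a type and less RNA per cell cannot be told apart.

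For each member, the nearest start site of a counted gene within 100 kb was taken, which gave 931 genes for 993 members. The other 296 members had none. Fmn1, which encodes an actin-nucleating formin, was nearest to 3 members, and 60 further genes were nearest to 2. Of the 931 genes, 562 passed the filter on low counts. Since a gene could pass on the strength of P1 alone, the counts of called genes below are read only beside the same share over all genes tested.

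At P7 against P5, 22 of the 562 nearest genes fell, or 3.91%, beside 2.28% of all genes tested, and 9 rose, or 1.60%, beside 1.19%. Most nearest genes were thus not called, and their median log2 difference was −0.04, against −0.01 over all genes. Genes nearest to regions with a peak in 1, 2 and 3 P7 samples fell in 2.80%, 2.71% and 2.27%. The genes that fell included regulators of DNA replication, matrix genes and developmental transcription factors. Pclaf, a PCNA-associated factor of replicating cells with a member within 1000 bases of its start, had 32.6, 23.2, 25.3 and 18.6 CPM at P5 and 10.2, 6.71, 9.45 and 5.71 at P7. Every P7 library lay below every P5 library, with a log2 difference of −1.63 ± 0.17 (edgeR adjusted p = 2.11e-06). The member there was weak, with a strength of 13.8, and had peaks in 2 P3 samples.

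E2f7, an E2F repressor active in S phase, was nearest to 2 members, 56020 and 61199 bases from its start. It had 11.8, 6.71, 9.24 and 5.76 CPM at P5 and 2.06, 4.01, 3.61 and 2.45 at P7, with a log2 difference of −1.47 ± 0.22 (edgeR adjusted p = 0.000122). Mcm6, a subunit of the replicative helicase, had 85.9, 58.4, 60.5 and 46.5 CPM at P5 and 25.9, 30.02, 25.8 and 24.4 at P7 (log2 difference −1.24 ± 0.13, edgeR adjusted p = 3.36e-06). Both genes had already fallen from P1 to P5, and their P5 and P7 libraries did not overlap. These genes belong to a wider fall: 11 of 28 S-phase genes and 28 of 28 G2 and M-phase genes were lower at P7 than at P5, and Mcm6 was the only gene of these 2 lists nearest to a member.

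Sfrp2, a secreted Wnt modulator, was nearest to 2 members 51577 and 89967 bases away, neither of which had a P3 peak. Its RNA was 4.33, 7.54, 3.75 and 3.51 CPM at P5 and 1.53, 0.772, 1.38 and 0.817 at P7, a log2 difference of −2.08 ± 0.42 (edgeR adjusted p = 0.00215), after a larger fall from P1, where it had 20.7 to 45.0 CPM. Osr1, a zinc-finger factor of mesenchymal progenitors, has a member in its 3' untranslated exon. It had 23.3, 25.1, 19.3 and 29.9 CPM at P5 and 10.5, 14.2, 9.84 and 8.98 at P7 (log2 difference −1.17 ± 0.16, edgeR adjusted p = 4.50e-05). Tenm4, a transmembrane teneurin, had risen from P1 to P5 and then fell, from 28.7, 35.6, 31.4 and 33.6 CPM at P5 to 8.63, 11.6, 11.3 and 14.6 at P7 (log2 difference −1.49 ± 0.17, edgeR adjusted p = 5.38e-06). Osr1 and Tenm4 differ from the cell-cycle genes in that their P5 level was not below that of P1.

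Col23a1, a transmembrane collagen gene, fell by 1.35 ± 0.22 on the log2 scale, Slc4a4, a bicarbonate transporter gene, by 1.17 ± 0.15 and Auts2 by 1.04 ± 0.16, each with no overlap of the P5 and P7 libraries. Without P5 replicate 2 or P7 replicate 2, the Auts2 difference was −0.98 and −0.95, short of a 2-fold change. Eln, which encodes elastin, was lower at P7 with overlapping libraries: 4.46, 7.12, 10.98 and 24.8 CPM at P5 and 4.50, 1.93, 2.38 and 7.27 at P7. Alx4, a homeobox factor with 2 members, also overlapped, with 8.34, 7.05, 7.04 and 22.5 CPM at P5 and 2.75, 3.16, 2.08 and 8.02 at P7 (log2 difference −1.48 ± 0.43, edgeR adjusted p = 0.0226). In both genes replicate 4 was the highest library of each of these passages. Scn3a, a sodium channel gene, had 0.129 to 0.415 CPM at P5 and was at 0 counts in all 4 P7 libraries.

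**Figure D5:**
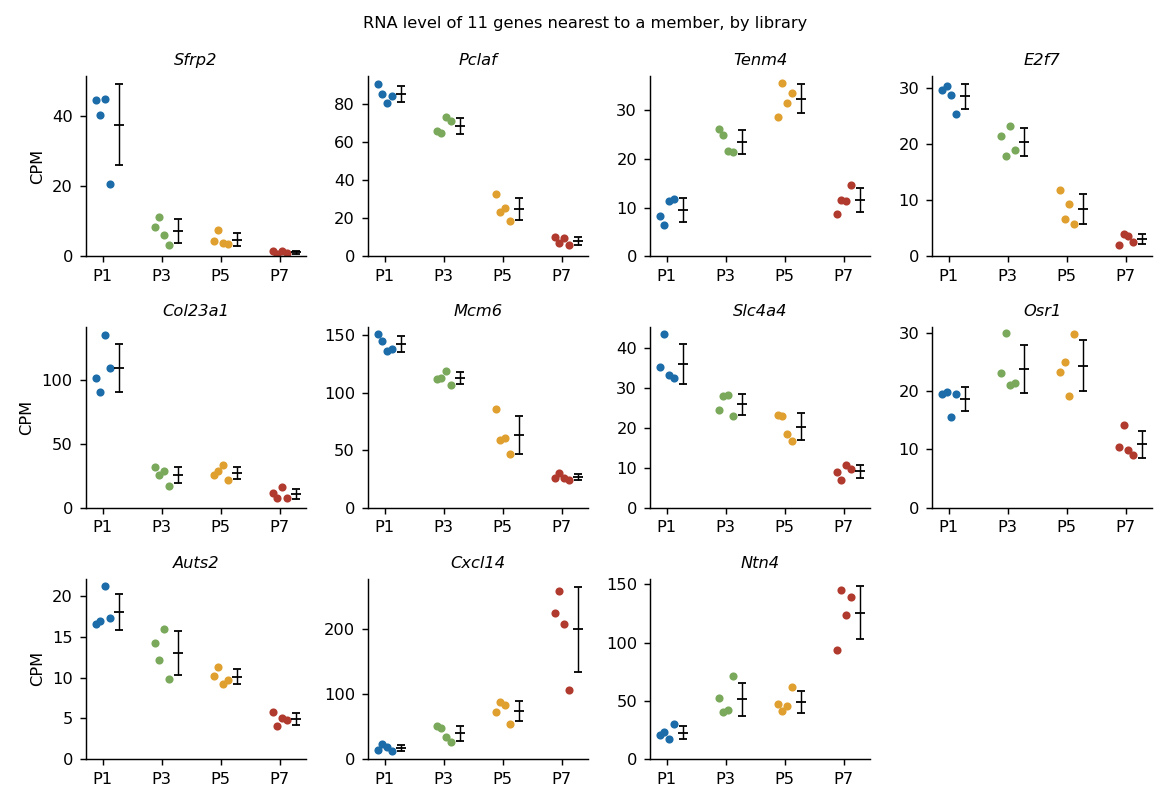
CPM of the 11 genes nearest to a member that were called at P7 against P5 whose mean log2 CPM was 3 or more and whose P5 and P7 libraries did not overlap. Points are the 4 libraries of each passage and the bar is the mean ± SD. Mcm6, E2f7 and Pclaf fall along all passages, Tenm4 and Osr1 fall at P7 only, and Cxcl14 and Ntn4 rise.

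Other nearest genes rose at P7. Cxcl14, a chemokine, had 71.8, 87.3, 83.5 and 53.5 CPM at P5 and 226, 259, 209 and 106 at P7, a log2 difference of 1.44 ± 0.24 (edgeR adjusted p = 0.000399). Ntn4, which encodes the basement membrane protein netrin-4, had 47.2, 41.0, 45.5 and 62.2 CPM at P5 and 94.0, 146, 124 and 139 at P7 (log2 difference 1.36 ± 0.19, edgeR adjusted p = 4.32e-05). Both genes were also higher at P5 than at P1. Perp, a p53 target of cell adhesion, fell from P1 to P5 and rose again at P7, with 0.840, 1.38, 0.646 and 1.66 CPM at P5 and 5.27, 6.17, 4.46 and 5.27 at P7 (log2 difference 2.22 ± 0.42, edgeR adjusted p = 0.00118). Genes nearest to members thus moved in both directions.

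More of the nearest genes differed between P1 and the later passages. At P5 against P1, 94 of 562 fell, or 16.7%, beside 10.1% of all genes, and 28 rose, or 4.98%, beside 4.83%. At P7 against P1, 115 fell, or 20.5%, beside 13.3%, and 34 rose, or 6.05%, beside 8.10%. These comparisons share libraries with each other and with P7 against P5, and P5 was a passage at which these regions still had peaks. With at least 10 counts required in every library, 52 nearest genes (10.9%) fell at P5 against P1, beside 5.89% of all genes. Of the genes nearest to regions with a peak in 1, 2 and 3 P7 samples, 13.9%, 12.4% and 10.1% fell at P5 against P1.

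Genes with a member at their start also fell more often than they rose at P5 against P1, but not at P7 against P5. There were 126 such genes, of which 60 were tested (47.6%), while 80.7% of the genes with a kept region at their start were. At P5 against P1, 16 fell, or 26.7% (10.1% of all genes), and 3 rose, or 5.0% (4.83%). This was not particular to members, since 25.2% and 20.2% of the genes whose start had a region with a peak in 1 or 2 P7 samples fell, and 7.94% of those with a kept region. At P7 against P5, Pclaf and Pianp fell and Adcy5 and Pgpep1l rose, which is 3.33% in each direction (2.28% and 1.19% of all genes). Cfb, which encodes complement factor B, had 54.5, 37.9, 66.1 and 25.4 CPM at P1 and 2.70 to 4.70 at P5, with 2.70 to 4.43 at P7. Its member (chr17:34861884-34862993) had a peak in all 3 P3 samples, when its RNA was already at 2.39 to 5.26 CPM. Robo2, an axon guidance receptor gene, and Gpc3, a glypican gene, also fell from P1 to P5, by 1.70 ± 0.25 and 1.09 ± 0.17 on the log2 scale. Gabarapl1, an autophagy gene, was the opposite case, with 61.4 to 65.0 CPM at P1 and 144 to 152 at P7 (log2 difference 1.23 ± 0.09, edgeR adjusted p = 4.09e-10), although the gene 1700101I11Rik shares its start region and the reads were counted without strand.

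Markers of macrophages, keratinocytes, skeletal muscle and endothelium were lower after P1. The summed levels of 3 other lists overlapped between P1 and P5 or were higher at P5, but the adipocyte sum was lower at P7 than at P1. The fibroblast markers were abundant throughout, with a summed level of 29510 to 31170 CPM at P1 and 52930 to 64070 at P7. The macrophage markers summed to 336.7 to 522 CPM at P1, 46.8 to 66.7 at P3 and 22.6 to 33.6 at P5, and 12 of 12 fell from P1 to P5. At P7 the macrophage sum was higher than at P5, at 35.8 to 55.6 CPM, and Csf1r was called higher. Keratinocyte markers summed to 69.4 to 420.7 CPM at P1 and 6.40 to 11.98 at P5, with 8 of 9 tested lower, and skeletal muscle markers to 186.3 to 291.3 and 33.4 to 60.2, with 10 of 11 lower. The keratinocyte and skeletal muscle sums at P7, 10.8 to 13.9 and 41.9 to 112.6 CPM, overlapped those at P5. All 10 endothelial markers fell, from 177.6 to 199 CPM at P1 to 16.5 to 20.3 at P5 and 9.24 to 12.7 at P7, and Cldn5, Pecam1 and Vwf were also called at P7 against P5. Erg, an endothelial transcription factor gene in that list, was nearest to a member, with a mean of 7.42 CPM at P1 and 0.2995 at P5. The adipocyte markers summed to 531.7 to 687.9 CPM at P1 and 345.7 to 585.8 at P5, the Schwann cell and melanocyte markers to 99.2 to 114 and 94.8 to 163.4, and the pericyte and smooth muscle markers to 2227 to 3483 and 3782 to 4972. From P1 to P5, 2 of 5 adipocyte markers fell, 2 of 9 Schwann cell and melanocyte markers fell and 2 rose, and 1 of 9 pericyte and smooth muscle markers fell and 3 rose. Over all genes tested, 10.1% fell and 4.83% rose from P1 to P5. At P7 the adipocyte markers summed to 209.5 to 391.8 CPM, and 4 of 5 were lower than at P1, beside 13.3% of all genes. At P7 the other 2 lists summed to 87.2 to 209.7 and 5041 to 7121 CPM, in the same order. Their part in the ATAC-seq signal of the members was not tested.

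Beside 2.28% lower and 1.19% higher over all genes, of 54 matrix genes 3 fell and 0 rose at P7 against P5, and of 57 signalling genes 2 fell and 8 rose, with 8 genes of each list nearest to a member. Of 30 inflammatory and secretory genes 4 rose, 2 of the list being nearest to a member, and of 11 senescence genes Lmnb1 fell and Cdkn2a rose, with none nearest. Among matrix genes nearest to a member the directions were mixed. From P1 to P5, Dcn, which encodes decorin, fell by 1.46 on the log2 scale, and Col5a1 and Col5a2, chains of type V collagen, rose by 1.24 and 1.06, with no call at P7 against P5. Of the 57 signalling genes, 11 fell and 5 rose at P5 against P1, where 10.1% of all genes fell and 4.83% rose. Among those nearest to a member, Rspo1, a Wnt agonist, fell by 3.67 on the log2 scale, Axin2, a Wnt target, by 2.96 and Sfrp2 by 2.98. Of the 8 genes nearest to most members, E2f7 alone was called at P7 against P5. Fmn1 had 60.8 to 97.8 CPM at P5 and 61.7 to 94.2 at P7, Arhgef1 110 to 130 and 104 to 132, and Trabd2b, a Wnt protease gene with 2 members in its introns, fell from P1 to P5 by 2.04 ± 0.22 on the log2 scale and had 4.66 to 10.2 CPM at P7, against 5.39 to 12.2 at P5.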

How the data were processed

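Per the submitters' processing notes and the study's methods, ATAC-seq reads were aligned to mm10 with Bowtie2 2.3.5.1 and peaks were called per sample with MACS2, extending reads to 200 bases. The deposited peak lists give a fold enrichment (a ratio to local background) and −log10 p and q values, which were used as deposited. Rows with equal coordinates were merged. RNA-seq reads were trimmed with Trimmomatic 0.39, aligned with HISAT2 2.2.1 and counted without strand by the authors with HTSeq 0.12.4, giving raw counts per gene. Counts of 16 libraries were fitted together in edgeR 4.0.16 (R 4.3.3; filterByExpr, TMM, 1 coefficient per passage), tested on simulated data. Presence was any overlap. Start sites, exons and sequence came from RefSeq GRCm38.p6; 24463 of 24984 counted genes matched by symbol and 421 by an older symbol. Named regions were the 6 strongest near a start and 6 farther away; named genes were the 10 lowest and highest called nearest genes (P7 against P5) whose mean log2 CPM was 3 or more and whose libraries did not overlap, the 8 nearest to most members, and genes of the factor and pathway lists. The members and lists were chosen with earlier results of these data known. The read depth of each ATAC-seq library was not used here, and no read-level interval was computed. RRBS and the perturbation libraries were not used here.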

Additional observations from a re-analysis of the deposited data

Results flagged for a closer look

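Among 48 groups of 4 samples examined for a value far from the others, 2 were picked out, which is about the 1 in 20 that chance gives. Both lay in P1 replicate 3 of the RNA-seq. Osr1 had 15.6 CPM there, against 19.5 to 19.9 in the other 3 P1 libraries. Auts2 had 21.3 CPM there, against 16.6 to 17.4. Neither enters the P7 against P5 comparison except through the shared estimate of spread.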

How the results depend on the processing

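Counts and shares have no sign, so only changes in their size can be read. The AP-1, EBF, RUNX, homeobox and TEAD differences from kept regions held their sign under each alternative window, peak selection and exclusion. So did the P7 against P5 differences of the 11 named genes under their own alternatives. The E-box sign also held but carries little, since its shares were nearly equal, at 15.75% of members and 15.6% of kept regions. Away from start sites the E-box shares were 15.79% and 16.09%. The orders that turned within the weakest decile, given above, were not part of this comparison. Nor was the second decile, where the TEAD order turned, at 8.0% of members and 7.67% of kept regions. The number of members was 263 with peaks required in all 4 P1 and all 3 P5 samples, 2665 with an equal number of top-ranked peaks per sample, and 601 to 2368 when each sample was left out in turn. The share near a start was 11.8% and 13.2% under the first 2 of these settings, 7.45% and 13.5% with windows of 500 and 2500 bases, and 7.70% to 10.65% when each sample was left out. The share with a peak in 2 or more P3 samples was 49.05% and 65.9% under the same settings, 62.0% with 1 or more P3 samples, and 31.0% to 38.9% when each sample was left out. With 50 bases on each side of the summit, the AP-1 difference was −10.8 points (main −13.4) and the EBF difference 3.15 points (main 4.80).

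Over all genes tested, 2.28% and 1.19% were lower and higher at P7 against P5, 10.1% and 4.83% at P5 against P1, and 13.3% and 8.10% at P7 against P1. Lower and higher nearest genes were 13 and 5, 54 and 18, and 66 and 20 in these comparisons with starts within 25 kb. Of the 309 tested, these were 4.21% and 1.62%, 17.5% and 5.83%, and 21.4% and 6.47%. With members that had a peak in 2 or more P3 samples, they were 7 and 3, 39 and 9, and 45 and 13. Of the 226 tested, these were 3.10% and 1.33%, 17.3% and 3.98%, and 19.9% and 5.75%. With top-ranked peaks there were 33 and 18 of 1190 tested at P7 against P5, or 2.77% and 1.51%. There were 176 and 61 at P5 against P1 (14.8% and 5.13%), and 220 and 94 at P7 against P1 (18.5% and 7.90%). With at least 10 counts in every library there were 5 higher at P7 against P5, 52 lower at P5 against P1 and 71 lower at P7 against P1. Of the 477 tested, these were 1.05%, 10.9% and 14.9%, beside 0.679%, 5.89% and 9.07% of all genes under that filter. When each library was left out, the ranges were 18 to 25 and 6 to 10, 92 to 101 and 24 to 30, and 114 to 125 and 29 to 39. With a replicate block there were 22 and 10, 93 and 28, and 115 and 34. The labels do not say what a replicate number of the RNA-seq marks. The 24 same-numbered pairs of libraries had a median correlation of deviations of 0.0939 (−0.262 to 0.276, 11 over 0.1), against −0.0217 for the other 72 pairs, and 10 of 16 libraries correlated best with their own number, which is a hint from the data and not the design. DESeq2 gave 24 and 9 at P7 against P5, or 4.27% and 1.60%, beside 2.37% and 1.24% of all genes. Of the 11 genes named for P7 against P5, 10 kept their call under 14 alternatives each, and Auts2 lost it without P5 replicate 2 (−0.98) and without P7 replicate 2 (−0.95). The settings that leave out members of 220 bases or less, that require 2 or more P3 peaks, and that count genes with top-ranked peaks were chosen after seeing the data.

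Peak lists give presence at a threshold only, and the read depth behind a peak was not used here.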

Other observations

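Short, strong regions were not particular to the members. Over all union regions, 29713 were at most 220 bases long and 163 of these had a peak above the 50th percentile in some sample. Counting a passage as present where most of its samples had a peak, 19 of the 163 were present at P1 and P5 only, 25 at P1 only, 18 at all passages, 9 at P7 only, 7 at P5 and P7, and 74 at none. What these regions are was not tested.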
